A study of Mus musculus with 12 samples.

Results

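The genes described here are 31 mouse genes of amino acid charging and amino acid stress: 19 cytosolic aminoacyl-tRNA synthetase genes, and 12 genes that encode ATF4, its relative ATF5 and stress genes known to respond to ATF4. The members were given by name, and the synthetases were also matched under their older symbols without the final 1. Of the 31 genes, 29 had a probe set of their own among the 28853 on the array, 18 synthetases and 11 genes of the ATF4 list. Aars1 was present only on a probe set shared with another gene, and Pycr1 was not matched, so neither has a value here. Every other member had a single probe set except Iars1, for which the brighter of 2 was used; the other rose by 1.50 ± 0.30 (SE) in WT cells at 6 h, against 1.55 ± 0.27 for the chosen probe set. No expression filter was applied, so each of the 29 genes was tested in every comparison.

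Aminoacyl-tRNA synthetases attach amino acids to their tRNAs and so feed the ribosome. Each enzyme serves a particular amino acid, apart from the product of Eprs1, which serves both glutamate and proline. When charging falls short, or the endoplasmic reticulum is under stress, kinases phosphorylate eIF2, general translation slows, and translation of ATF4 rises. ATF4 then switches on genes for amino acid synthesis and uptake, for many synthetases, and for regulators such as Trib3, Chac1, Sesn2 and Ddit4. T cells that are stimulated through the antigen receptor grow and raise protein synthesis before they divide.

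The arrays measured total RNA of naive CD4 T cells of the C57BL/6 strain. The donor mice were WT or carried a transgene for PP2Ac (Tg), which is the catalytic part of the phosphatase PP2A. Cells of each genotype were taken without stimulation (0 h) or after 6 h or 24 h with soluble antibodies to CD3 and CD28 over plates coated with goat antibody to hamster immunoglobulin, in RPMI with fetal calf serum. Each of the 6 groups had 2 arrays, of which 1 has Rep in its title. The 6 arrays with Rep form the set marked Rep and those without it the unmarked set. Whether the arrays of a pair came from separate mice or cultures is not stated, so p-values measure only the spread between these samples, which may be technical. No source used here gives the promoter or founder line of the transgene, and the source label of the WT groups reads WT transgenic mice. Values are log2 intensities per probe set, quantile normalised, and differences are log2 differences ± SE from limma; a gene was called when its Benjamini-Hochberg adjusted p over 23410 probe sets was below 0.05. Levels were not compared between genes.

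Ppp2ca, which encodes PP2Ac, read 13.69 to 13.90 in the 6 Tg arrays and 13.15 to 13.42 in the 6 WT arrays, without overlap (0.57 ± 0.05 averaged over times, adjusted p = 0.0044). By time, Tg was higher by 0.74 at 0 h, 0.38 at 6 h and 0.60 at 24 h. It was called at no single time (limma adjusted p = 0.055 at 0 h and 0.28 at 24 h). The 5 T cell markers with a probe set (Cd3e, Cd3d, Cd3g, Cd4 and Cd28) had a mean level of 12.77 to 13.31 in every array. Markers of other cells were also above the lower quartile of all values (5.81) in every array, and 7 neutrophil markers stood apart in 3 of them. Their mean was 8.10 to 9.06 in the WT arrays marked Rep, 11.49 to 12.37 in the unmarked WT arrays, and 10.42 to 12.15 in the Tg arrays. The 5 monocyte markers followed, with means of 8.14 to 9.16 in the WT arrays marked Rep and 9.83 to 10.87 in all others. In bulk RNA, fewer cells of a type and less RNA per cell cannot be told apart.

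The amino acid response element through which ATF4 acts carries the letters TGATGNAA, and both strands of the 300 bases around each start site (250 before, 50 after) were searched for it in RefSeq sequence (GRCm38.p6). Windows were found for 23 of the 31 members. The letters occurred in 5 of 12 synthetase genes (41.7%: Aars1, Gars1, Iars1, Tars1 and Yars1) and in 6 of 11 genes of the ATF4 list (54.5%: Asns, Chac1, Pycr1, Slc7a11, Trib3 and Vldlr), against 4.51% of all 27025 genes. Among 21 other genes known as ATF4 targets they occurred in 5 (23.8%), so most of those genes lacked them in this window. They occurred in 0 of 14 mitochondrial synthetase genes, 0 of 11 genes of the eIF2 pathway and 0 of 4 genes of the multisynthetase complex list. Lists this small can hold 0 matches at the share of all genes. The longer form TGATGNAAT was found in 3 synthetase genes and in Pycr1 (1.08% of all genes), and the cyclic AMP element core TGACGTCA in 0 members (2.03% of all genes). A match is a description of these letters and not evidence of a bound site. The stretches before the start site of 5 measured genes are shown because they share these letters while their responses to stimulation differed, as described below. Each runs 5′ to 3′ on the gene's strand, with the letters of 1 match in capitals. In Asns the letters lie 23 to 16 bases before the start, in Chac1 193 to 186, in Gars1 30 to 23, in Tars1 15 to 8 and in Slc7a11 66 to 59. Slc7a11 has a second match, on the opposite strand, 47 to 40 bases before the start, which is left in lower case. The matches of Chac1, Gars1 and Tars1 are also on the opposite strand. Vldlr, a measured gene called in no comparison, has a match on the opposite strand 200 to 193 bases before the start, which is not shown.
Asns (chr6:7693210-7693272, minus strand): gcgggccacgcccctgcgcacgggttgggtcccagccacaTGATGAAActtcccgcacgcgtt
Chac1 (chr2:119351009-119351096, plus strand): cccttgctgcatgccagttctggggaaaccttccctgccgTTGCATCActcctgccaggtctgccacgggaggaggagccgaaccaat
Slc7a11 (chr3:50443632-50443719, minus strand): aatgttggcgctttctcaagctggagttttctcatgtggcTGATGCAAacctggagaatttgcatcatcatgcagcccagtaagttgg
Gars1 (chr6:55037931-55038000, plus strand): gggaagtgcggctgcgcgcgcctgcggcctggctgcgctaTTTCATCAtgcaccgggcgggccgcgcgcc
Tars1 (chr15:11399659-11399713, minus strand): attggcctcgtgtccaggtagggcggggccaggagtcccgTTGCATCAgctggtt

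The first question was how stimulation changed these genes in each genotype. The synthetases rose nearly together. At 6 h, 16 of 18 were called higher in WT cells and 15 of 18 in Tg cells, and none was called lower. Their median difference was 1.19 in WT and 1.24 in Tg, against a median of -0.01 and 0.00 over all probe sets tested. Over all probe sets, 12.6% were called higher and 13.9% lower in WT at 6 h, and 12.5% higher and 12.9% lower in Tg. All 15 synthetases called in Tg were among the 16 called in WT (93.8% of the WT calls and 100% of the Tg calls); Cars1 was the exception.

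**Figure D1:**
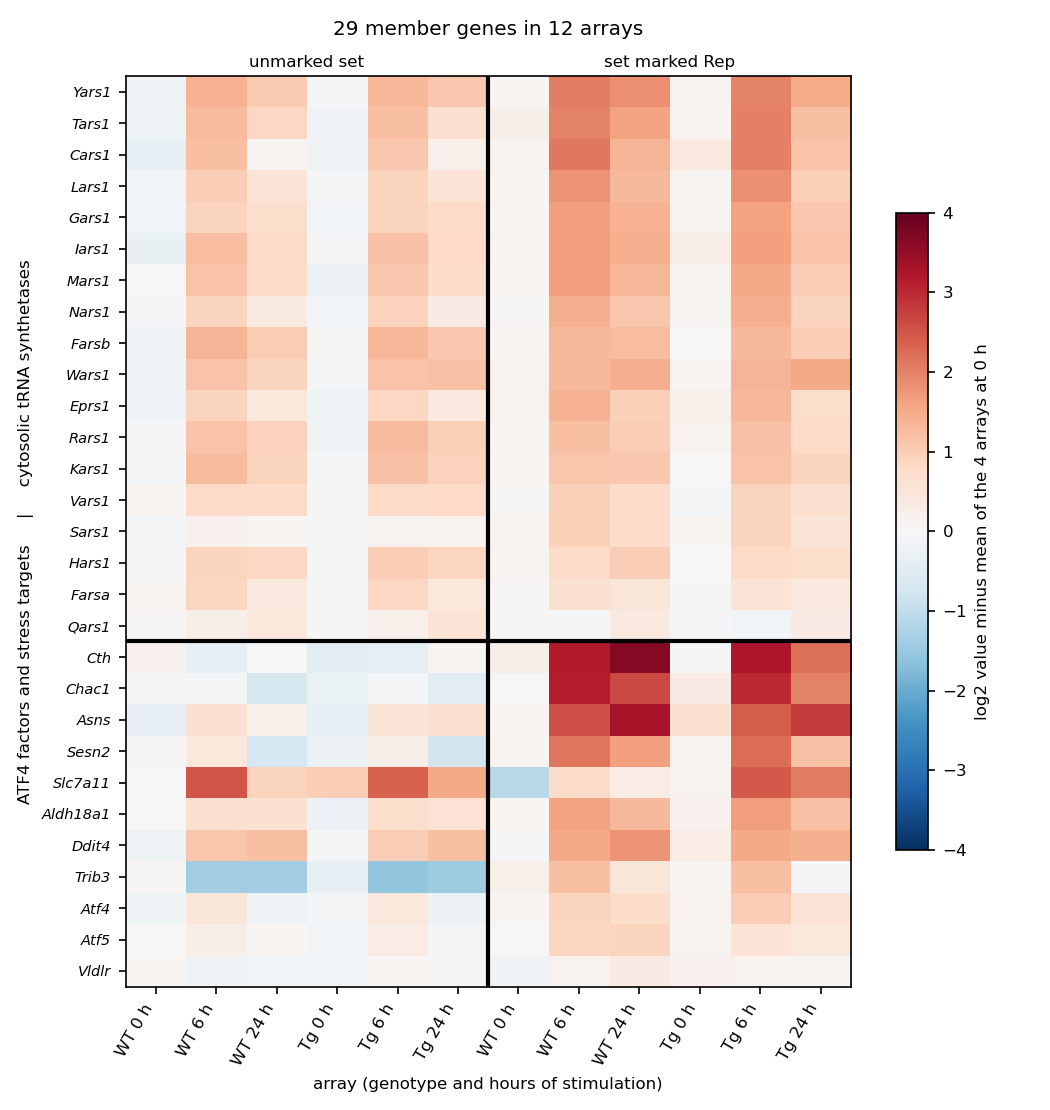
Colour gives the log2 value of each of the 29 measured genes in each array minus the mean of that gene's 4 arrays at 0 h. Rows above the black line are the 18 synthetases and rows below it the 11 genes of the ATF4 list; the left block of columns is the unmarked set and the right block the set marked Rep. Synthetases are red of differing depth at 6 h and 24 h in both blocks, apart from Qars1 at 6 h. The palest are the unmarked arrays of Sars1 at both times and of Cars1 at 24 h. Farsa and Qars1 at 24 h, and the unmarked arrays of Nars1 at 24 h, are also pale. Cth, Chac1, Asns and Sesn2 are dark red only on the right, and Trib3 is blue on the left at 6 h and 24 h.

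Cars1, which charges cysteine tRNA, had the largest WT difference at 6 h. It read 9.43 and 9.93 in WT at 0 h (unmarked array first, here and below), 11.00 and 11.92 at 6 h, and 9.92 and 11.15 at 24 h. In Tg it read 9.64 and 10.19, then 10.89 and 11.80, then 10.00 and 10.95. Both 6 h arrays of each genotype lay above both 0 h arrays, while at 24 h the unmarked array of each genotype lay within the range of its 0 h arrays. The difference at 6 h was 1.78 ± 0.51 in WT, 3.43-fold (adjusted p = 0.030), and 1.43 ± 0.51 in Tg, which was not called (adjusted p = 0.074) but was with the mark as a block (adjusted p = 0.00030).

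Yars1, the tyrosyl enzyme, read 10.20 and 10.41 in WT at 0 h, 11.73 and 12.40 at 6 h, and 11.40 and 12.17 at 24 h. In Tg it read 10.26 and 10.49, then 11.68 and 12.34, then 11.42 and 11.83. No stimulated array overlapped the 0 h arrays, and it rose in WT by 1.76 ± 0.32 at 6 h, 3.38-fold, and 1.48 ± 0.32 at 24 h (adjusted p = 0.0028 and 0.0078). Tars1, the threonyl enzyme, read 9.52 and 9.94, then 10.96 and 11.71, then 10.55 and 11.33 in WT. Its Tg values were 9.58 and 9.81, then 10.91 and 11.73, then 10.37 and 10.93. Stimulated and unstimulated arrays did not overlap here either, and Tars1 rose by 1.61 ± 0.37 in WT and 1.62 ± 0.37 in Tg at 6 h (adjusted p = 0.010 and 0.0099).

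Eprs1, whose product charges both glutamate and proline tRNAs within the multisynthetase complex, read 11.15 and 11.46, then 12.22 and 12.70, then 11.73 and 12.27 in WT. In Tg it read 11.14 and 11.52, then 12.15 and 12.64, then 11.72 and 12.01. The 4 arrays of 0 h were its lowest, and within each pair of like mark the 6 h array was above the 24 h array. It rose by 1.16 ± 0.25 in WT and 1.06 ± 0.25 in Tg at 6 h (adjusted p = 0.0082 and 0.013). The 6 h calls of Cars1 in WT, and of Tars1 and Eprs1 in both genotypes, were lost without the unmarked 0 h array or without the 6 h array marked Rep of the same genotype (adjusted p of 0.058 to 0.172), and that of Cars1 also without the WT 0 h array marked Rep (0.064); those of Yars1 were not, although its WT call at 24 h was lost without the 24 h array marked Rep (0.058), and its Tg call at 24 h without either Tg array of 0 h or the 24 h array marked Rep (0.066 to 0.108).

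The other synthetases called at 6 h rose in WT by 0.67 (Farsa, the catalytic subunit of the phenylalanyl enzyme) to 1.55 (Iars1, the isoleucyl enzyme). The beta subunit Farsb had the smallest p, with 1.37 ± 0.10 in WT and 1.27 ± 0.10 in Tg (adjusted p = 3.2e-05 and 4.5e-05). Of the enzymes with a class I catalytic fold, 9 of 10 were called in WT at 6 h, and of the class II enzymes 7 of 8, with medians of 1.28 and 1.17. Among the 7 measured enzymes of the multisynthetase complex, 6 were called, with a median of 1.17, and among the 11 others 10, with a median of 1.22.

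Qars1 and Sars1 were the synthetases not called at 6 h in either genotype. Qars1, the glutaminyl enzyme, read 11.69 and 11.68, then 11.87 and 11.57, then 12.06 and 12.02 in WT. In Tg it read 11.57 and 11.59, then 11.84 and 11.53, then 12.18 and 11.96. The 6 h arrays of each genotype lay on both sides of the 0 h arrays, with a difference of 0.04 in WT and a 95% interval of -0.26 to 0.33. At 24 h all 4 arrays lay above all 4 arrays of 0 h, and Qars1 was called higher in Tg (0.49 ± 0.13, adjusted p = 0.025; 0.103 without the unmarked Tg array of 0 h, 0.170 without that of 24 h, and also not called without the Tg array of 0 h marked Rep) but not in WT (0.36 ± 0.13, adjusted p = 0.076; 0.030 with the mark as a block). Sars1, the seryl enzyme, read 11.93 and 12.10, then 12.19 and 12.97, then 12.11 and 12.75 in WT, and 11.94 and 12.09, then 12.16 and 12.90, then 12.14 and 12.54 in Tg. Its stimulated arrays marked Rep were well above the unmarked ones, and its 6 h difference was 0.56 ± 0.32 in WT and 0.52 ± 0.32 in Tg (adjusted p = 0.26 and 0.31; 0.033 and 0.048 with the mark as a block).

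At 24 h, 12 synthetases were called higher than at 0 h in WT and 11 in Tg, with medians of 0.95 and 0.83. Over all probe sets 12.9% were called higher and 13.8% lower in WT, and 12% higher and 11.8% lower in Tg. Gars1 and Tars1 were called in WT and not in Tg, and Qars1 in Tg and not in WT; with the mark as a block all 3 were called in both. Counting the ATF4 list, 13 members were called higher in WT and 12 in Tg, and with the mark as a block 20 and 19. The shares of all probe sets given above are those of the fit without the block. The count depended on single arrays, being 8 in WT without the unmarked 0 h array, 7 without the 24 h array marked Rep, 7 without all 3 WT arrays marked Rep, and 6 in Tg without the unmarked 0 h array. At 6 h, 18 members were called in each genotype, and the count in Tg was 9 without the unmarked 0 h array or without the 6 h array marked Rep.

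From 6 h to 24 h, 16 of 18 synthetases had a negative difference in each genotype, with medians of -0.26 in WT and -0.35 in Tg. None of the 29 members was called in this comparison in either genotype (2 members in WT and 5 in Tg at unadjusted p under 0.05 in limma; 1 was called in Tg without either Tg array of 0 h), whereas 13.3% of all probe sets were called in WT and 14.3% in Tg. With the mark as a block, 3 were called in WT (Cars1, Eprs1 and Iars1, all lower) and 8 in Tg (Atf4 and 6 synthetases lower, Qars1 higher). The share of all probe sets called with the block is not given here, so these counts are not read as particular to the members. Cars1 had the largest difference among the synthetases, -0.92 ± 0.51 in WT and -0.87 ± 0.51 in Tg (adjusted p = 0.0063 and 0.0076 with the block). Of the ATF4 list, Slc7a11 and Sesn2 had the largest WT differences, -1.03 ± 0.57 and -0.81 ± 0.95, and neither was called.

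Fewer genes of the ATF4 list were called in the same fit. At 6 h Ddit4 and Slc7a11 were called in WT, 2 of 11, and these and Aldh18a1 in Tg, 3 of 11, against 12.6% and 12.5% of all probe sets called higher. A count of 2 of 11 is near that share, although the median difference of the list was 1.19 in WT and 1.23 in Tg, close to that of the synthetases. At 24 h Ddit4 alone was called in each genotype, 1 of 11, against 12.9% of all probe sets in WT and 12% in Tg. With the mark as a block, Atf4, Atf5, Asns and Aldh18a1 were also called in WT at 6 h (adjusted p = 0.012, 0.040, 0.037 and 0.0024). The SE of Chac1 was 1.42, of Asns 1.13 and of Cth 1.56, compared with 0.09 to 0.51 among the synthetases. The arrays of a pair were far apart in these genes, and the split followed the mark Rep in both genotypes.

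Ddit4, an inhibitor of mTORC1 signalling also called Redd1, was called at both times, and its arrays of a pair differed by at most 0.59. It read 9.47 and 9.59, then 10.78 and 11.19, then 10.85 and 11.44 in WT, and 9.62 and 9.95, then 10.63 and 11.18, then 10.86 and 11.09 in Tg. No stimulated array overlapped the 0 h arrays. It rose by 1.45 ± 0.24 at 6 h and 1.62 ± 0.24 at 24 h in WT, and by 1.12 ± 0.24 and 1.19 ± 0.24 in Tg (adjusted p = 0.0019, 0.0013, 0.0080 and 0.0072). The Tg calls were lost without the unmarked 0 h array (0.066 at 6 h and 0.058 at 24 h), and at 6 h also without the array marked Rep (0.065).

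Chac1 encodes an enzyme that degrades glutathione and is a widely used marker of the ATF4 pathway. In the unmarked set it read 8.71, 8.70 and 8.15 in WT and 8.52, 8.70 and 8.33 in Tg, at 0 h, 6 h and 24 h. In the set marked Rep it read 8.78, 11.92 and 11.40 in WT and 9.09, 11.76 and 10.76 in Tg. Every stimulated array marked Rep lay above every other array, and the unmarked stimulated arrays lay within or below the range of the 0 h arrays.

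Trib3, a pseudokinase induced by ATF4 that restrains it in turn, had differences of opposite sign in the sets at 6 h. In the unmarked set it read 9.36, 7.94 and 7.92 in WT and 9.01, 7.79 and 7.90 in Tg. In the set marked Rep it read 9.53, 10.53 and 9.82 in WT and 9.39, 10.52 and 9.28 in Tg. The unmarked stimulated arrays were all below the 0 h arrays, and the 6 h arrays marked Rep were both above them. At 24 h the array marked Rep read above its 0 h array in WT and below it in Tg.

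Asns, asparagine synthetase, read 8.82, 9.76 and 9.36 in WT and 8.80, 9.68 and 9.75 in Tg in the unmarked set. Arrays marked Rep read 9.24, 11.72 and 12.46 in WT and 9.75, 11.56 and 11.94 in Tg. It was thus higher after stimulation than before in each genotype of both sets, with larger differences in the set marked Rep. Sesn2, a sestrin that senses leucine and restrains mTORC1, read 9.63, 10.01 and 8.89 in WT and 9.34, 9.83 and 8.84 in Tg in the unmarked set. The arrays marked Rep read 9.67, 11.74 and 11.24 in WT and 9.72, 11.82 and 10.77 in Tg. At 24 h the unmarked arrays lay below all 0 h arrays and those marked Rep above them.

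Cth, which makes cysteine from cystathionine, was singled out after its values were seen. In the unmarked set it read 6.74, 6.22 and 6.54 in WT and 6.14, 6.17 and 6.63 in Tg. With the mark it read 6.84, 9.73 and 10.24 in WT and 6.53, 9.80 and 8.77 in Tg. Only the stimulated arrays marked Rep lay above 7.

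Atf4 itself read 9.35, 10.00 and 9.34 in WT and 9.46, 9.95 and 9.27 in Tg in the unmarked set, and 9.61, 10.40 and 10.24 in WT and 9.65, 10.51 and 10.06 in Tg in the set marked Rep. Its level peaked at 6 h in each genotype of each set. In the unmarked set its 24 h arrays lay below the 0 h arrays, in WT only narrowly (9.34 against 9.35), and it was not called lower there. In the set marked Rep its 24 h arrays lay above the 0 h arrays. With all arrays in 1 fit it was not called at 6 h (0.72 ± 0.34 in WT, adjusted p = 0.17; 0.012 with the mark as a block). ATF4 is controlled largely through translation, which these arrays did not measure.

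**Figure D2:**
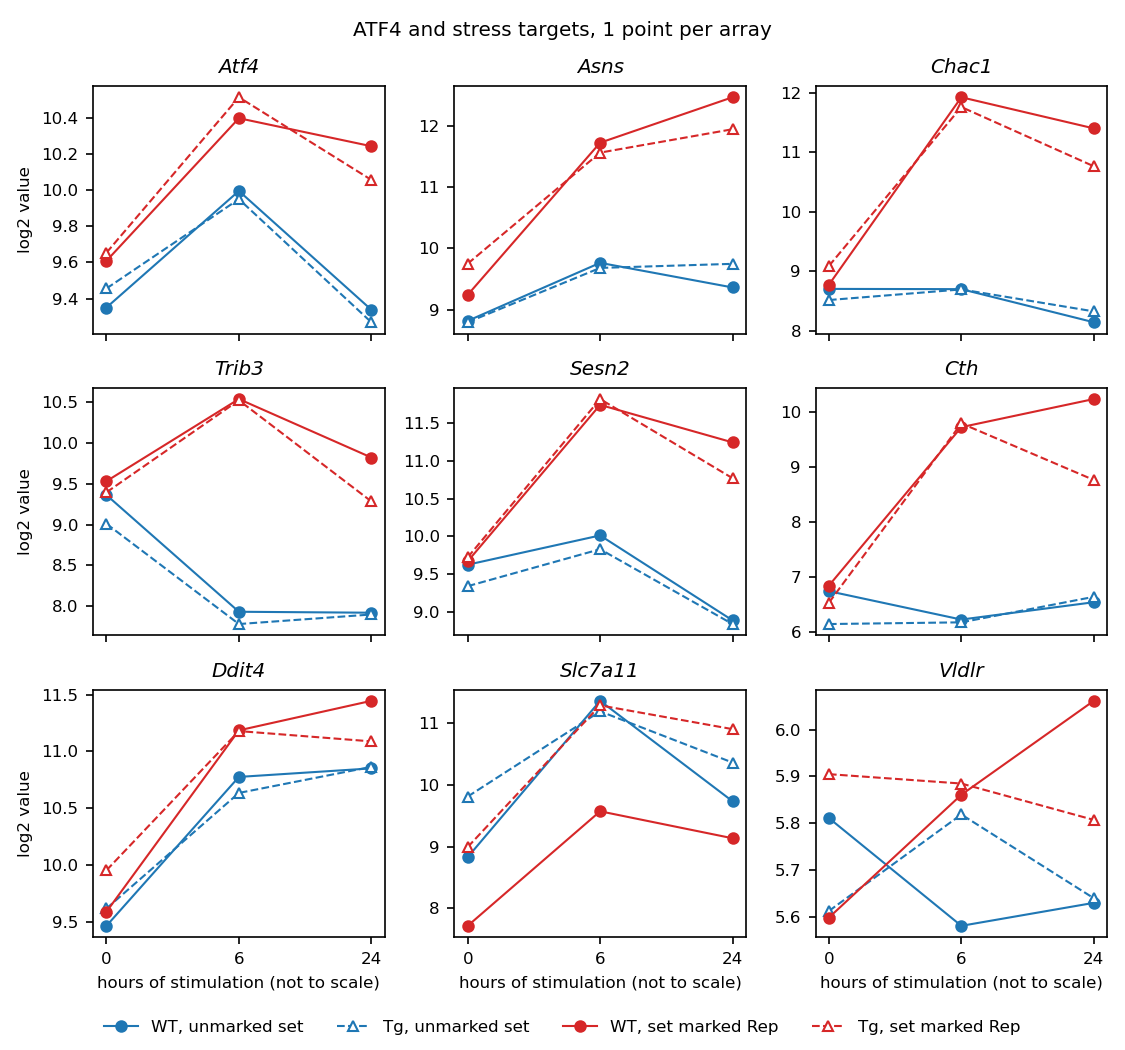
Each panel plots the log2 value of a gene in all 12 arrays against hours of stimulation, with blue for the unmarked set, red for the set marked Rep, filled circles for WT and open triangles for Tg. Axes differ between panels and do not start at 0. Red and blue lines separate after stimulation in Chac1, Cth, Sesn2, Trib3 and Asns, run nearly together in Ddit4, and in Slc7a11 the WT line marked Rep lies below the other lines.

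The sets were therefore fitted apart in a joint fit, with 6 group means and a difference between the sets at each time that WT and Tg share. This fit was chosen after the values had been seen. It has 3 residual degrees of freedom, and each set has 1 array per genotype and time. Differences within a set are means over WT and Tg, whose arrays thus stand in as replicates of the set. The p-values take the gap between the sets to be equal in both genotypes. That was not so for every gene: the gap of Cth at 24 h was 3.71 in WT and 2.13 in Tg. In the unmarked set 21 members were called higher at 6 h than at 0 h and 1 lower, and in the set marked Rep 27 were called higher and 0 lower. The shares of all probe sets called higher and lower were 16.3% and 17% in the unmarked set and 14.6% and 17.5% with the mark Rep. Of the synthetases, 16 were called among unmarked arrays, and the same 16 and Sars1 with the mark, with medians of 1.13 and 1.23.

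Of the ATF4 list, 5 were called higher in the unmarked set at 6 h (Atf4, Asns, Ddit4, Slc7a11 and Aldh18a1) and 1 lower (Trib3), and 10 were called higher in the set marked Rep, all but Vldlr. The median of the list was 0.44 for the unmarked arrays and 1.51 for those marked Rep, against -0.001 and -0.003 over all probe sets. Chac1 differed by 0.09 ± 0.21 in the unmarked set (adjusted p = 0.81) and rose by 2.91 ± 0.21 in the set marked Rep, 7.49-fold (adjusted p = 0.00032). Cth differed by -0.24 ± 0.33 (adjusted p = 0.65) and rose by 3.08 ± 0.33 (adjusted p = 0.0010). Trib3 fell by 1.32 ± 0.13 in the unmarked set (adjusted p = 0.00068) and rose by 1.06 ± 0.13 in the set marked Rep (adjusted p = 0.0018). Sesn2 differed by 0.44 ± 0.14 (adjusted p = 0.055) and rose by 2.08 ± 0.14 (adjusted p = 0.00027), and Asns rose in both, by 0.91 ± 0.22 and 2.14 ± 0.22 (adjusted p = 0.022 and 0.00092).

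At 24 h, 20 members were called higher and 2 lower in the unmarked set (Trib3 and Sesn2), and 27 higher in the set marked Rep. Over all probe sets 15.8% were called higher and 16.4% lower in the unmarked set, and 15.5% and 16.9% in the set marked Rep. All but Sars1 of the 18 synthetases were called in the unmarked set and all 18 in the set marked Rep. Of the ATF4 list, 3 were called higher in the unmarked set, and 9 with the mark; Atf4, Atf5, Chac1, Cth, Sesn2 and Slc7a11 were called higher there and not in the unmarked set. Sesn2 fell by 0.62 ± 0.14 in the unmarked set (adjusted p = 0.017) and rose by 1.31 ± 0.14 in the set marked Rep (adjusted p = 0.0012).

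**Figure D3:**
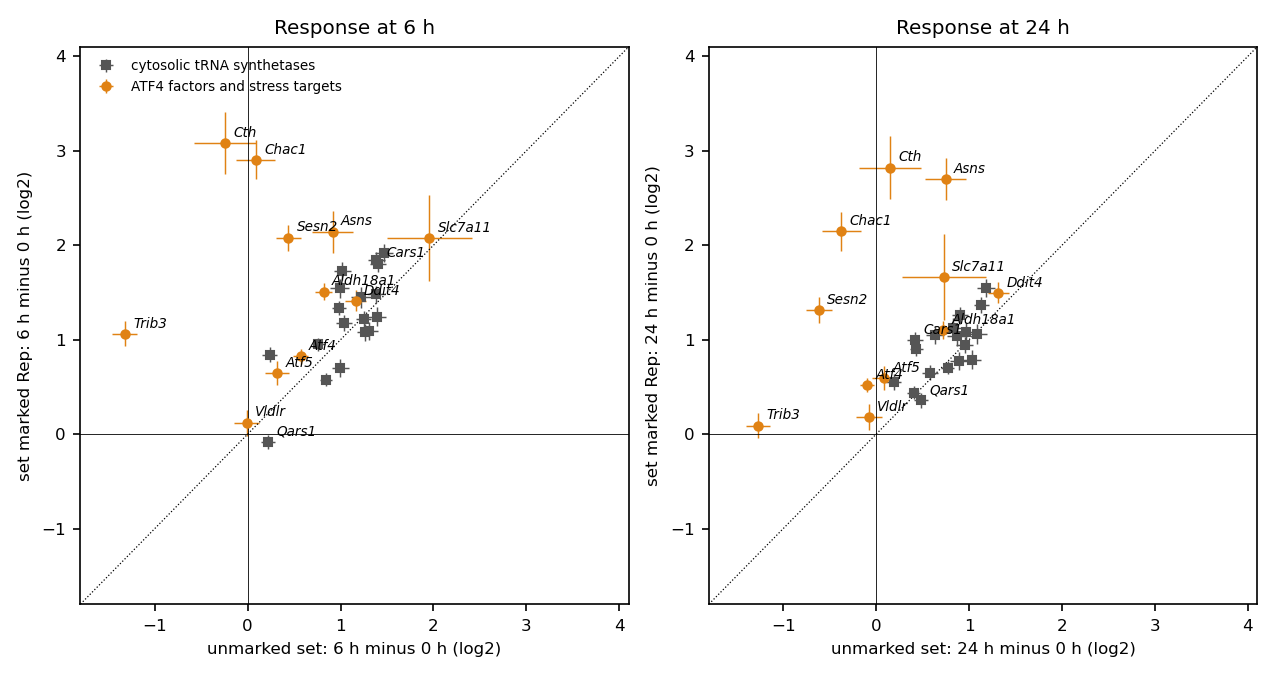
Each point is a gene, placed by its log2 difference from 0 h, on the x axis for unmarked arrays and on the y axis for arrays marked Rep, at 6 h (left) and 24 h (right); bars are ± 1 SE of the fit with sets apart, and the dotted line marks equal differences. Synthetases (grey squares) differ between the axes by -0.30 to 0.71 at 6 h and -0.24 to 0.57 at 24 h. Cth, Chac1, Sesn2, Trib3 and Asns (orange) lie above it, with Cth at -0.24 and 3.08 and Trib3 at -1.32 and 1.06 at 6 h.

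The difference between the sets in the response was then tested itself. Averaged over the genotypes, all 11 genes of the ATF4 list had a larger difference in the set marked Rep at both times. Their median gap was 0.69 at 6 h and 0.94 at 24 h, against -0.02 and 0.00 over all probe sets. Among the synthetases, 11 of 18 had a larger difference at 6 h and 12 at 24 h, with medians of 0.17 and 0.14. These signs are not independent, since all genes share the same arrays and both times share those of 0 h. None of the 29 members passed the threshold at either time. Over all probe sets 0% passed at 6 h and 0.0598% at 24 h, and at unadjusted p under 0.05 there were 15 members at 6 h and 14 at 24 h. The gap at 6 h was 3.33 ± 0.47 for Cth (adjusted p = 0.25), 2.82 ± 0.29 for Chac1 (adjusted p = 0.15), 2.39 ± 0.19 for Trib3 (adjusted p = 0.12) and 1.64 ± 0.19 for Sesn2 (adjusted p = 0.19). With the arrays centred on their medians, 4 members passed at 6 h and 5 at 24 h, and with trended and robust moderation 4 at each time. Without any 1 array of 24 h, 2 passed at 6 h, and without either Tg array of 24 h, 1 passed at 24 h. The shares of all probe sets that passed in these alternative fits are not given here, so these counts cannot be set against them.

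Compared at the same time point, no member was called different between the sets at 0 h (0.00427% of all probe sets called; 8 members at unadjusted p under 0.05). At 6 h, 10 members were called higher in the set marked Rep (0.449% of all probe sets called in either direction), and at 24 h these 10 with Atf4 and Nars1 (1.65% of all). The 6 of the ATF4 list at 6 h were Cth (3.57 ± 0.33), Chac1 (3.14 ± 0.21), Trib3 (2.66 ± 0.13), Asns (1.92 ± 0.22), Sesn2 (1.86 ± 0.14) and Aldh18a1 (0.94 ± 0.09), the last an enzyme of proline synthesis. The 4 synthetases were Cars1 (0.92 ± 0.09), Lars1 (0.88 ± 0.09), Tars1 (0.78 ± 0.09) and Sars1 (0.76 ± 0.08). Of these 10, the adjusted p ran from 0.0050 (Trib3) to 0.043 (Asns and Tars1). The count at 6 h fell to 0 without any 1 of the WT arrays of 6 h, to 1 without a Tg array of 6 h and to 3 without an array of 0 h; the count at 24 h fell to 5 or 6 without any 1 array. The smallest differences between the sets at 6 h were those of synthetases, with -0.01 for Rars1, -0.06 for Farsb and -0.10 for Kars1, each ± 0.09 or 0.10.

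The gap between the sets (Rep minus unmarked) can be set side by side in the genotypes, which was not tested. At 6 h it was 3.22 in WT and 3.06 in Tg for Chac1, 3.51 and 3.63 for Cth, and 2.60 and 2.73 for Trib3. Atf5 (0.65 and 0.28) and Slc7a11 (-1.79 and 0.10) had less equal gaps. At 24 h the WT gap was the larger in Cth (3.71 and 2.13), Chac1 (3.25 and 2.43) and Asns (3.10 and 2.19). Neutrophil markers also differed more between the WT arrays. Their mean at 6 h was 8.78 in the WT array marked Rep against 11.77 in the unmarked one, and 10.90 against 11.44 in Tg; at 24 h it was 8.10 against 11.49 in WT and 10.42 against 10.65 in Tg. The part of other cells in the gap was not tested. T cell markers differed between the sets by a median of -0.03, -0.15 and -0.07 at 0 h, 6 h and 24 h, and B cell markers by 0.28, 0.66 and -0.11, with no marker of either list called. NK cell markers differed by medians of 0.15, 0.49 and -0.25, and of their 4 markers Klrd1 was called lower in the set marked Rep at 24 h (-1.08 ± 0.11, adjusted p = 0.016). The mean of the 2 CD8 T cell markers was lower in the array marked Rep of every pair, in both genotypes. In WT it was 9.26 against 9.34 at 0 h, 9.05 against 9.78 at 6 h and 9.88 against 10.27 at 24 h. In Tg it was 9.09 against 9.63, 9.21 against 10.23 and 10.18 against 11.02. No source used here says what distinguishes the sets besides the title, and the part of culture or array handling in the gap was not tested.

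With the sets apart, the fall from 6 h to 24 h was also called for some members. In the unmarked set 10 members were called, all lower, and in the set marked Rep 14, of which 13 were lower and Qars1 higher (23.9% and 20.3% of all probe sets were called in either direction). Cars1 fell by 0.99 ± 0.09 and 0.81 ± 0.09 in the sets (adjusted p = 0.0010 and 0.0025), and Sesn2 fell by 1.06 ± 0.14 and 0.77 ± 0.14 (adjusted p = 0.0036 and 0.012). Atf4 fell by 0.67 ± 0.08 and 0.31 ± 0.08 (adjusted p = 0.0024 and 0.039). These counts depended on single arrays. In the unmarked set 5 were called without its Tg array of 6 h or its WT array of 24 h, and 2 without its WT array of 6 h. In the set marked Rep 9 were called without any 1 array of 0 h, 8 without either unmarked array of 6 h, 5 without its Tg array of 24 h, 2 without its WT array of 6 h and 1 without its Tg array of 6 h.

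Among the remaining genes of the ATF4 list, Atf5, a transcription factor related to ATF4, read 7.62 and 7.65, then 7.86 and 8.51, then 7.71 and 8.52 in WT, and 7.52 and 7.76, then 7.92 and 8.20, then 7.60 and 8.07 in Tg. With the sets apart it was called in the set marked Rep, at 6 h (0.65 ± 0.13, adjusted p = 0.011) and 24 h (0.59 ± 0.13, adjusted p = 0.015), and not in the unmarked set. Vldlr, a lipoprotein receptor, read 5.58 to 6.06 in all 12 arrays, near the lower quartile of all values. It was called in no comparison, and its 6 h difference was 0.02 ± 0.17 in WT.

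The second question, named in the series' design, was how WT and Tg cells differed. None of the 29 members was called between the genotypes at 0 h, 6 h or 24 h (0.00854% of all probe sets at each), averaged over the times (0.0256%), or in the difference between genotypes in the 6 h or the 24 h response (0% each). In this fit Ppp2ca, the gene of the transgene, was called in the average and at no single time. A missing call therefore does not show that a difference is absent. At unadjusted p under 0.05, limma gave 0 members at each time and Slc7a11 alone in the average. The synthetase medians were 0.01, -0.03 and -0.11 at 0 h, 6 h and 24 h, against -0.02, -0.01 and -0.01 over all probe sets. At 24 h, 16 of 18 synthetases and 10 of 11 genes of the ATF4 list read lower in Tg, with differences of -0.29 to 0.17 and -0.69 to 1.20. Those signs came from the arrays marked Rep, where 17 of 18 and 10 of 11 read lower in Tg, with medians of -0.23 and -0.45. In the unmarked arrays of 24 h, 13 of 18 synthetases and 6 of 11 genes of the ATF4 list read higher in Tg, 4 and 5 read lower, and the medians were 0.03 and 0.01. These signs are not independent, since all genes share the same 4 arrays.

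With the sets fitted apart, intervals narrowed for genes split by the mark, such as Chac1 and Asns. Still none of the members was called at any time (0.00854%, 0.0171% and 0.0128% of all probe sets at 0 h, 6 h and 24 h; 2, 0 and 2 members at unadjusted p under 0.05). At 6 h the difference was -0.08 for Chac1, with a 95% interval of -0.59 to 0.42, and -0.08 for Trib3, with an interval of -0.41 to 0.24. For Cars1 it was -0.11, with an interval of -0.33 to 0.10, and for Asns -0.12, with an interval of -0.67 to 0.42. The largest synthetase difference at 24 h was that of Tars1, -0.29 with an interval of -0.51 to -0.08 (adjusted p = 0.57).

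**Figure D4:**
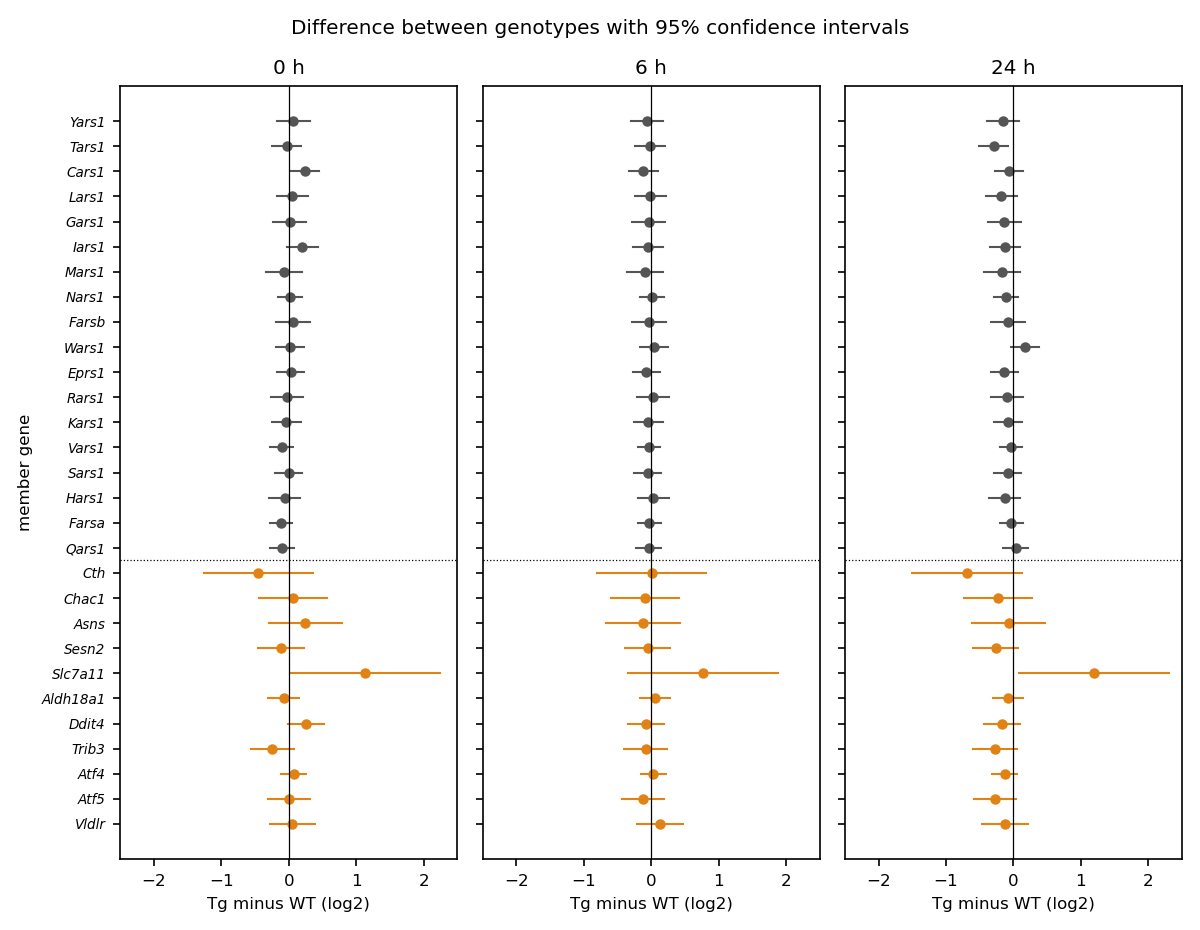
Points are log2 differences (Tg minus WT) of the 29 genes at 0 h, 6 h and 24 h from the fit with sets apart, and bars are 95% confidence intervals without adjustment for the number of genes. Synthetases are grey and the ATF4 list orange. Most intervals include 0, and Slc7a11 has the largest difference at each time, 1.13, 0.77 and 1.20.

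Slc7a11, the cystine carrier of system xc-, was the member with the smallest p between the genotypes at 24 h, followed by Hars1 and Atf5, none of them called. Slc7a11 read 8.83 and 7.71, then 11.36 and 9.57, then 9.73 and 9.13 in WT, and 9.81 and 8.99, then 11.19 and 11.29, then 10.36 and 10.90 in Tg. Both genotypes rose at 6 h, by 2.20 ± 0.57 in WT and 1.84 ± 0.57 in Tg (adjusted p = 0.019 and 0.042), and the 3 WT arrays marked Rep were the lowest of their times. The WT call was lost without the unmarked 6 h array (0.115) or the 0 h array marked Rep (0.130), and the Tg call without any 1 of the 6 Tg arrays or either WT array of 24 h (0.051 to 0.234). Tg cells read higher by 1.13 at 0 h, 0.77 at 6 h and 1.20 at 24 h, each ± 0.57, and by 1.03 ± 0.33 averaged over the times (adjusted p = 0.74). Within the unmarked set the differences were 0.98, -0.17 and 0.63, and within the set marked Rep 1.28, 1.72 and 1.77. The WT arrays marked Rep, lowest in Slc7a11 at each time, were also those with the low neutrophil and monocyte markers; the part of other cells in its level was not tested.

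**Figure D5:**
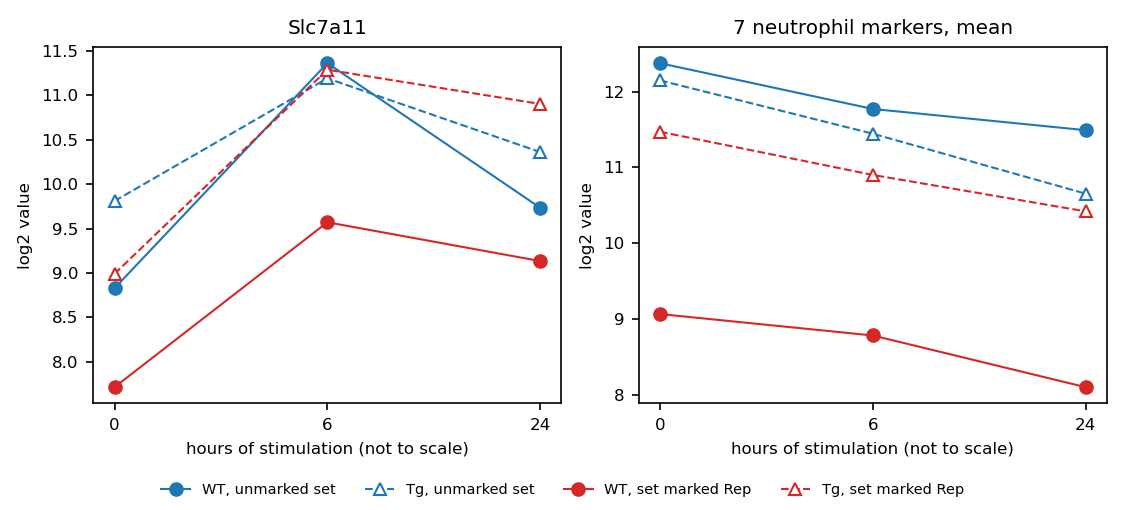
The left panel plots the log2 value of Slc7a11 and the right panel the mean log2 value of 7 neutrophil markers, in each of the 12 arrays against hours of stimulation (blue, unmarked set; red, set marked Rep; filled circles, WT; open triangles, Tg). The WT arrays marked Rep are lowest in both panels at each time, with marker means of 8.10 to 9.06.

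Hars1, the histidyl enzyme, read 10.33 and 10.50, then 11.28 and 11.15, then 11.20 and 11.37 in WT, and 10.32 and 10.39, then 11.36 and 11.14, then 11.23 and 11.08 in Tg. The arrays of 24 h overlapped between the genotypes, with a difference of -0.13 ± 0.11. For Atf5 the difference at 24 h was -0.28 ± 0.29.

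Lists of related genes were measured alongside. The 3 scaffold and associated proteins of the multisynthetase complex, Aimp1, Aimp2 and Eef1e1, all rose at 6 h in WT, by 0.71, 1.76 and 1.71 (adjusted p = 0.0014, 2.4e-05 and 2.0e-05), and none was called between the sets at any time. Of 16 mitochondrial synthetases, 8 were called higher and 2 lower in WT at 6 h (12.6% and 13.9% of all probe sets), with a median of 0.34, and those of smallest p were Sars2 (0.91), Yars2 (1.18), Aars2 (0.65) and Rars2 (0.80). None of the 16 was called between the sets. Of 13 genes of the eIF2 pathway, 6 were called higher and 1 lower in the same comparison. Between the sets, Ppp1r15a, an eIF2 phosphatase subunit, and Impact, an inhibitor of the kinase GCN2, were called higher in the set marked Rep at 24 h, by 0.47 ± 0.07 and 0.46 ± 0.07 (adjusted p = 0.045 and 0.041). Eif2b3, a subunit of the eIF2 exchange factor, rose by 1.73 ± 0.11, and Eif2ak3, which encodes the endoplasmic reticulum kinase PERK, fell by 1.70 ± 0.12 (adjusted p = 2.1e-05 and 2.8e-05). Eif2b5 and Eif2b1 rose by 0.74 and 0.72.

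Of 23 other genes known as ATF4 targets, 9 were called higher in WT at 6 h and 0 lower (12.6% and 13.9% of all probe sets), with a median of 1.35. The 4 of smallest p were the amino acid carriers Slc1a5 (1.35 ± 0.15), Slc7a1 (1.72 ± 0.31) and Slc7a5 (1.95 ± 0.36) and the serine enzyme Shmt2 (2.11 ± 0.27). In the fit with sets apart, 12 of the 23 were called higher in the set marked Rep at 6 h and 9 at 24 h. Over all probe sets 0.449% were called in either direction at 6 h and 1.65% at 24 h. The counts of members in these comparisons depended on single arrays, as given above. Slc6a9, a glycine carrier, and Eif4ebp1, a repressor of cap-dependent translation, were the genes of this list whose 24 h response itself was called different between the sets, by 2.83 ± 0.18 and 1.54 ± 0.13 (adjusted p = 0.045 for each); they were singled out after their values were seen. Slc6a9 read 9.12, 10.45 and 8.88 in WT and 9.38, 10.31 and 8.86 in Tg in the unmarked set. In the set marked Rep it read 9.57, 13.21 and 12.47 in WT and 9.90, 13.03 and 11.90 in Tg. As with Chac1 and Sesn2, its 24 h arrays lay below the 0 h arrays in the unmarked set and above them in the set marked Rep.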

How the data were processed

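The deposited table holds log2 intensities of 28853 probe sets on 12 arrays, between 3.49 and 15.38; the log base was inferred from this range, and no source used here says how the arrays were summarised. Array medians ran from 7.39 to 7.50, a range of 0.11 above the limit of 0.1, so the values were quantile normalised. Of all probe sets 21789 had 1 gene symbol, 1621 several and 5443 none, and the 23410 with a symbol were tested. Tests used limma 3.58.1 in R 4.3.3 (6 group means, 6 residual and 3.05 prior degrees of freedom) with Benjamini-Hochberg adjustment within each of 12 comparisons. Python 3.11.15 (numpy 2.4.6, pandas 2.3.3) made the tables and matplotlib 3.10.9 the figures. The scripts were tested on simulated data.

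The members and lists were chosen with earlier results of these data known. Values in all arrays are given for Atf4, Trib3, Asns, Chac1 and Ddit4. They are also given, within each of the 2 lists, for the 3 largest and 2 smallest WT differences at 6 h and the 2 largest from 6 h to 24 h, and for the 3 smallest p between genotypes at 24 h where none is called. Of other lists at most 4 genes are named. Other genes were named after their values were seen.

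Whether the mark Rep pairs the arrays was checked with deviations from group means: 15 correlations between groups were all positive, 0.138 to 0.591. Arrays with the same mark thus shared variation, and the mark was used as a block in an alternative fit. Further alternatives were median centring or no normalisation, removal of the dimmest 40% of probe sets, 1 probe set or the mean of all probe sets per gene, trended and robust moderation, a fit of the compared groups alone, a difference of at least 1 and leaving out each array. The fits with sets apart (3 residual and 3.09 prior degrees of freedom) and the fit without the WT arrays marked Rep were added after the data were seen. With 2 arrays per group, the number of arrays limits the precision.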

Additional observations from a re-analysis of the deposited data

How the results depend on the processing

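Counts are of the 29 measured members called. The shares of all probe sets called under these alternatives are not given here. The counts therefore do not tell whether an alternative called more of all probe sets or more of the members. With the mark Rep as a block (the pairing of the arrays), 3 members were called in WT from 6 h to 24 h and 8 in Tg (0 in the fit without the block), and 20 in WT and 19 in Tg at 24 h against 0 h (13 and 12); the block added 33 single calls and removed none. With a difference of at least 1 required, 8 members in WT and 4 in Tg were called at 24 h against 0 h, and 7 in WT when its 3 arrays marked Rep were left out. From 6 h to 24 h in Tg, 1 member was called without the 40% dimmest probe sets and 1 with trended and robust moderation. For the difference between the sets in the response, median centring gave 4 members at 6 h and 5 at 24 h, and trended and robust moderation 4 at each; for their level at 6 h the latter gave 20.

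With each array left out in turn, the counts ran from 12 to 18 in WT and 9 to 18 in Tg at 6 h, 7 to 14 and 6 to 12 at 24 h, and 0 to 0 and 0 to 1 from 6 h to 24 h. With sets apart they ran from 20 to 24 (unmarked) and 25 to 27 (Rep) at 6 h, 17 to 22 and 22 to 27 at 24 h, and 2 to 13 and 1 to 16 from 6 h to 24 h. Between the sets they ran from 0 to 2 and 0 to 1 in the 6 h and 24 h response, and at the 3 times from 0 to 0, 0 to 7 and 5 to 6. The comparisons of genotypes gave 0 members under every alternative run. No member's called difference changed sign.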
